A study of Mus musculus with 2 samples.

Results

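The cells described here were *Pi16*-positive fibroblasts of the mouse femur, 180 of the 10638 barcodes in 2 single-cell libraries. A barcode was taken as a fibroblast when it held 200 or more genes, at least 3 UMIs of *Ly6a*, at least 1 of *Pdgfra* and 0 of *Cdh5*. *Prg4* had to be under 5%, *Col2a1* under 0.5% and the haemoglobin genes together under 10% of its UMIs. A UMI, or unique molecular identifier, tags 1 captured mRNA molecule. The members were thus selected on measured UMIs of these genes. Fibroblasts with at least 1 UMI of *Pi16* were called *Pi16*-positive and those with 0 *Pi16*-negative. The untreated library held 75 *Pi16*-positive and 345 *Pi16*-negative fibroblasts, and the calcitriol-injected library held 105 and 529.

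The femurs came from 7-week-old male C57BL/6J mice that were either left untreated or given intravenous calcitriol (1,25-dihydroxyvitamin D3). The treated mice had 3 daily injections of 2.5 μg/kg, and the bones were taken 24 h after the last one. The ends of the bones were cut off, the marrow was spun out, and CD45-positive cells were removed with magnetic beads after collagenase and EGTA digestion. Femurs of 6 mice were pooled into 1 library per group, so that no difference between the groups has a replicate check. The control mice received no vehicle injection as far as the methods tell, so that calcitriol and the injections themselves cannot be told apart.

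*Pi16* encodes peptidase inhibitor 16, a secreted or membrane-anchored protein of the CAP family. Fibroblasts that express it have been described in the outer layer of vessels and in the connective tissue sheaths of many organs, often together with *Dpp4*, *Cd55*, *Cd34* and *Clec3b*. They lie in collagen and elastic fibre rich tissue and are often regarded as an early or reserve state of the fibroblast lineage. *Ly6a* encodes the surface protein Sca-1 and *Pdgfra* a receptor for platelet-derived growth factor.

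The libraries held 70266983 UMIs in 6076 barcodes (untreated) and 60392557 UMIs in 4562 barcodes (calcitriol-injected). The *Pi16*-positive cells had a median of 10229 and 12486 UMIs and of 3095 and 3121 genes. Haemoglobin transcripts took 41.2% of the untreated and 10.6% of the calcitriol library, but a median of only 0.145% and 0.0309% of the UMIs of a *Pi16*-positive cell. The libraries had 8 barcode sequences in common, of which 1 belonged to an untreated *Pi16*-positive and 1 to a calcitriol-injected *Pi16*-negative cell. Scores against simulated pairs marked 1 of the 75 and 1 of the 105 cells as doublets, and these were kept.

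*Pi16* (ENSMUSG00000024011, chromosome 17 of GRCm38, 29317680 to 29330593) marked 17.9% of the untreated fibroblasts (95% Clopper-Pearson interval 14.3 to 21.9) and 16.6% of the calcitriol-injected ones (13.8 to 19.7). The intervals overlapped. All intervals in the text describe the error of counting and leave out variation between animals. Those of CPM and of ratios rest on UMIs summed over cells and also leave out variation between cells. With every cell thinned to 5000 UMIs and the rule applied to what was left, 42 of 277 (15.2%) and 55 of 401 fibroblasts (13.7%) were positive, with 16 and 19 fibroblasts left out as too shallow. Of all barcodes with 200 or more genes, the *Pi16*-positive cells were 1.62% and 2.68%. The denominator of this share held 1922 barcodes made up mostly of haemoglobin RNA in the untreated library and 378 in the other.

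Free RNA in the droplets can also give a UMI. *Pi16* was found in 2 of 208 untreated (0.962%) and 2 of 234 calcitriol-injected (0.855%) endothelial barcodes, which had a median of 9197 and 8987.5 UMIs. It was found in 1 of 1922 and 1 of 378 erythroid barcodes, with medians of 10479.5 and 10323.5 UMIs. The untreated erythroid barcode held 22 UMIs of *Pi16* and the calcitriol-injected one 1. The share in fibroblasts was higher than these shares in both libraries. The part of free RNA in fibroblasts called on 1 UMI was not tested.

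The number of *Pi16* UMIs chose the cells and is given as a description. The untreated cells held between 1 and 62 UMIs of *Pi16* with a median of 3, and the calcitriol-injected cells between 1 and 135 with a median of 2. At the edge of the rule, 18 untreated (24%) and 40 calcitriol-injected cells (38.1%) had a single UMI. Between 2 and 5 UMIs were held by 34 and 27 cells, and 6 or more by 23 and 38 cells. In the plot of *Pi16* against depth, the highest untreated cell had 7351 UMIs in all and the highest calcitriol-injected cell 15444, neither the deepest of its library.

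**Figure D1:**
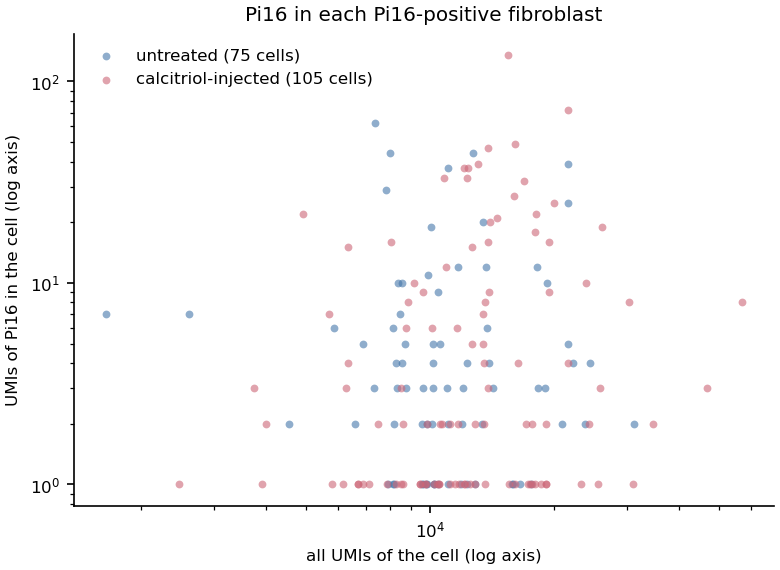
UMIs of Pi16 (vertical, log axis) against all UMIs (horizontal, log axis) of each of the 75 untreated and 105 calcitriol-injected Pi16-positive fibroblasts. Most cells sit between 1 and 5 UMIs of Pi16, and the highest cell of each library has 62 and 135.

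The given markers that the rule did not use were present in nearly every cell. *Clec3b*, which encodes the secreted lectin tetranectin, was found in 74 of 75 untreated and 102 of 105 calcitriol-injected *Pi16*-positive cells, at 2178 and 1227 CPM (the UMIs of the gene relative to all UMIs of the cells, on the usual CPM scale). *Cd34*, a surface sialomucin of fibroblasts, vessels and blood stem cells, was found in 75 and 97 cells at 1094 and 511 CPM. In endothelial barcodes *Clec3b* stood at 1.02 and 3.03 CPM. *Pi16*-negative fibroblasts also held both, *Clec3b* in 85.2% and 79.6% and *Cd34* in 76.2% and 68.2% of the cells.

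Genes that define endothelial, Schwann and white blood cells were at or near 0. Of the endothelial markers *Cdh5* (used by the rule), *Pecam1*, *Kdr*, *Egfl7*, *Emcn* and *Cldn5*, the untreated *Pi16*-positive cells held 0 UMIs, and the calcitriol-injected cells held 3 of *Pecam1* and 2 of *Egfl7*. The Schwann cell genes *Sox10* and *Mbp* were at 0 in both libraries. *Ptprc*, which encodes CD45, was at 0, and the macrophage gene *Lyz2* had 8 and 11 UMIs. Markers of the neighbouring connective tissues were not at 0. The 8 tendon markers summed to 1223 and 1347 CPM, led by *Comp* and *Thbs4*, against 4360 and 4520 CPM in *Pi16*-negative cells. The 9 osteoblast markers summed to 623 and 413 CPM, led by *Postn*, against 4539 and 2930 CPM. The 4 synovial lining markers, led by *Prg4*, summed to 1538 and 4983 CPM against 2173 and 4690 CPM. Counted over 8 cell types, 4 of 75 (5.33%) and 3 of 105 *Pi16*-positive cells (2.86%) held 5 or more UMIs of the defining genes of another type. Among *Pi16*-negative fibroblasts these were 98 of 345 (28.4%) and 122 of 529 (23.1%).

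Several markers differed between cells with few and with many UMIs of *Pi16*. *Cd55*, which encodes a complement regulator on the cell surface, stood in the untreated library at 245 CPM in *Pi16*-negative cells, at 299 CPM with 1 UMI of *Pi16*, at 593 CPM with 2 to 5 and at 1134 CPM with 6 or more. In the calcitriol library the same 4 groups had 156, 200, 353 and 378 CPM. *Mfap5*, a microfibril protein, stood at 721, 1440, 2077 and 2395 CPM in the untreated and at 563, 1423, 1642 and 1662 CPM in the calcitriol library. By summed CPM these genes were ordered as the *Pi16* counts in both libraries, though the intervals of some neighbouring groups overlapped. The share of untreated cells with *Cd55* was 55.9%, 83.3%, 64.7% and 69.6%, without that order. Of its 609 UMIs in untreated *Pi16*-positive cells, 131 were in 1 cell.

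*Efemp1*, the elastic fibre protein fibulin-3, had 44.0, 57.8, 144 and 217 CPM in the untreated and 84.2, 129, 162 and 376 CPM in the calcitriol library. *Efhd1*, a mitochondrial calcium-binding protein, had 22.8, 28.9, 77.8 and 114 CPM in the untreated and 8.62, 8.08, 27.4 and 53.3 CPM in the calcitriol library. *Dpp4*, the dipeptidyl peptidase by which these fibroblasts are often sorted, had 66.0, 116, 133 and 228 CPM in the untreated library but 51.9, 93.0, 82.1 and 80.8 CPM in the calcitriol library, without an order among positive cells. *Sparcl1*, a matricellular protein, had no such order. In the untreated library it stood at 223, 347, 483 and 252 CPM. In the calcitriol library it stood at 839 CPM in cells with 1 UMI of *Pi16* and at 53.3 CPM in cells with 6 or more, below the 194 CPM of the negative cells. *Col15a1*, which marks interstitial fibroblasts, stood at 241, 265, 316 and 138 CPM in the untreated and at 113, 176, 184 and 29.2 CPM in the calcitriol library. The median depth of the cells with 1 and with 6 or more UMIs of *Pi16* was 10345 and 10052 UMIs in the untreated and 10852.5 and 13709 UMIs in the calcitriol library. The groups were cut by the count that chose the cells, and these values are a description.

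**Figure D2:**
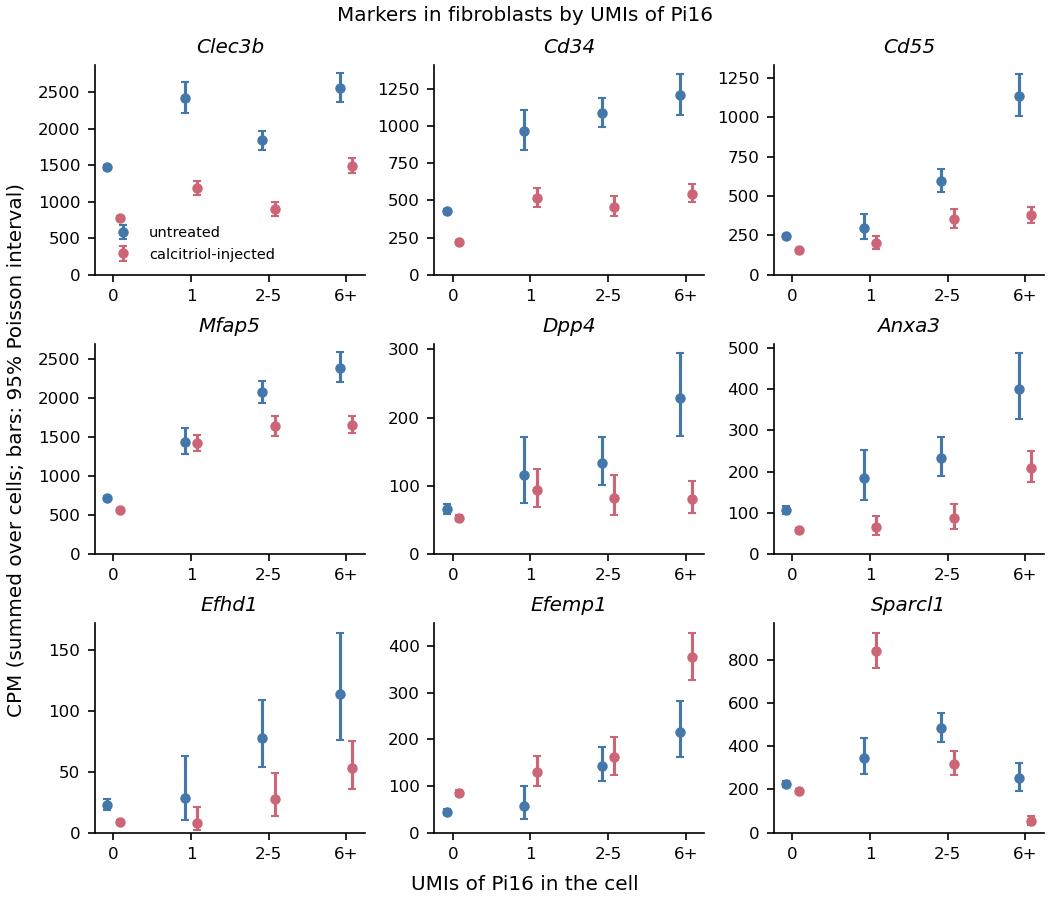
CPM of 9 genes (vertical) in fibroblasts with 0, 1, 2 to 5 and 6 or more UMIs of Pi16 (horizontal), summed over cells, in the untreated and the calcitriol-injected library; bars are 95% Poisson intervals. Cd55 and Mfap5 stand higher with each step of Pi16 in both libraries, some steps with overlapping intervals, and Sparcl1 is lowest in the calcitriol-injected cells with 6 or more.

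*Pi16*-positive and *Pi16*-negative fibroblasts were compared within each library, and a gene was counted when it was at least 2-fold apart in the same direction in both. Of 8902 genes with at least 20 UMIs in each library that were detected in 10% or more of any of the 4 groups of cells, 83 (0.932%) were higher and 116 (1.3%) lower in the *Pi16*-positive cells. Without the highest cell of each gene the counts were 55 and 179. *Pi16* had chosen the cells, so these counts are a description and were not tested. The libraries are separate sets of cells. In the untreated library alone 352 genes (3.95%) were higher and 350 (3.93%) lower, and in the calcitriol library alone 189 (2.12%) and 342 (3.84%). Ratios are given as log2 values of summed CPM with exact conditional intervals.

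Ranked by the smaller of their 2 ratios, the genes highest over the *Pi16*-negative fibroblasts were led by a ligand and a receptor. In single libraries *Krt80* was highest of the 15 in the untreated (2.63) and *Car8* in the calcitriol library (2.58). All of the 15 except *Tek*, *Slc43a3*, *Efhd1* and *Gngt2* reached 10% of cells only in *Pi16*-positive groups. These genes, *Wnt10b* among them, thus passed the filter through the cells in which they were high. Their ratios are a description. *Wnt10b* (chromosome 15, 98770712 to 98778150), a Wnt ligand, was found in 25.3% of untreated *Pi16*-positive and 6.67% of *Pi16*-negative cells, a log2 ratio of 2.44 (1.75 to 3.12). In the calcitriol library it was found in 13.3% and 4.54% of the cells, with a ratio of 2.11 (1.37 to 2.84). *Tek* encodes the angiopoietin receptor Tie2, best known from endothelium. It was found in 20.0% and 30.5% of the *Pi16*-positive cells of the libraries, with ratios of 2.04 (1.17 to 2.89) and 2.28 (1.76 to 2.81).

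*Clec1a*, a C-type lectin, had ratios of 2.11 and 1.86, and *Syk*, a tyrosine kinase of immune receptors, 1.97 and 1.96. *Slc43a3*, a purine transporter, was the most abundant of the group in calcitriol-injected cells. It was found in 30.7% of untreated and 61.0% of calcitriol-injected *Pi16*-positive cells, with ratios of 1.87 (1.33 to 2.40) and 1.92 (1.67 to 2.17). *Efhd1* stood at 1.75 and 1.85, and *Gngt2*, a G protein subunit, at 1.72 and 1.69. *Plac8* had 2.08 and 1.76, and 1.04 and 1.32 without the highest cell of each group. *Car8*, a carbonic anhydrase-related protein, stood at 1.71 and 2.58, but its untreated ratio was -0.36 in cells thinned to 2000 UMIs, as was that of *Tubb4a*. *Rorb*, a nuclear receptor, stood at 1.91 and 1.88. *Krt80*, *Lrrn2*, *Tubb4a*, *Usp18* and *Aif1l* completed the 15 highest. All 15 were sparse, with 9 to 69 UMIs over the untreated *Pi16*-positive cells. *Tek*, *Slc43a3*, *Clec1a*, *Car8* and *Gngt2* are also expressed by endothelial barcodes, at 136, 171, 54.5, 73.9 and 319 CPM in the untreated library. *Usp18* stood there at 20.4 CPM. In the *Pi16*-positive cells, which were chosen with 0 UMIs of *Cdh5*, *Pecam1*, *Kdr* and *Cldn5* were at or near 0. An endothelial source of these transcripts was not tested.

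Among the 15 genes lowest in *Pi16*-positive cells, *Cilp2* had the lowest ratio in the untreated and *Mmp13* in the calcitriol library. All of the 15 except *Ibsp*, *Chad*, *Col11a1*, *Spp1* and *Htra4* reached the filter's minimum share of cells only in *Pi16*-negative groups. Those genes, *Cilp2* and *Mmp13* among them, thus passed the filter through the cells in which they were high. Their ratios are a description. Ranked by the weaker of their 2 ratios, the 15 genes were led by *Ibsp*. This gene, which encodes the bone matrix protein bone sialoprotein, stood at 8.90 CPM against 1860 CPM in untreated *Pi16*-negative cells and at 12.2 against 2076 CPM in calcitriol-injected ones. It was found in 6.67% of untreated *Pi16*-positive and 11.9% of *Pi16*-negative cells, and in 15.2% and 19.5% after calcitriol, and 2789 of its 9051 UMIs in untreated *Pi16*-negative cells were in 1 cell. Without cells that held genes of other types, *Ibsp* among them, its ratio was 0.45 and 0.62. *Mmp13*, a collagenase, had log2 ratios of -5.79 and -8.41. *Chad*, *Cilp2* and *Col11a1*, which encode cartilage matrix proteins, had ratios of -6.24 and -3.72, -7.74 and -4.57, and -3.44 and -3.82. *Fmod*, a tendon proteoglycan, had -3.12 and -4.28. *Scx*, a tendon transcription factor, and *Kera*, keratocan, had 4 and 3 UMIs in the untreated *Pi16*-positive cells. In the calcitriol-injected ones both were at 0, which puts *Scx* at least 2.88 and *Kera* at least 3.31 below on the log2 scale with a floor of 3 counts over the group. *Spp1*, *Tspan2*, *Htra4*, *Ppfibp2*, *Rerg*, *Mertk* and *Ano1* were the others, of which *Ano1* turned to 0.41 in untreated cells on thinning.

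**Figure D3:**
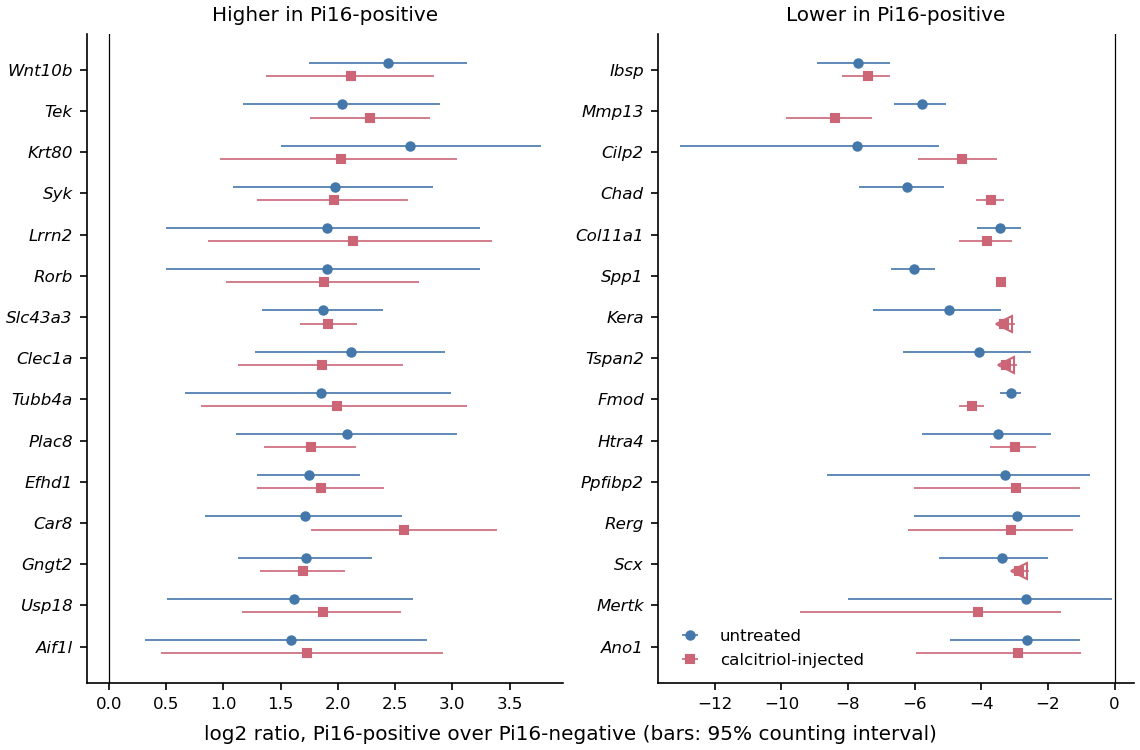
Log2 ratios of Pi16-positive over Pi16-negative fibroblasts in each library for the 15 genes highest and the 15 lowest in both; bars are 95% counting intervals and open triangles mark upper bounds where the Pi16-positive cells hold 0 UMIs (Kera, Tspan2 and Scx). Wnt10b and Tek lie above 2 in both libraries, and Ibsp lies below -7.

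The *Pi16*-negative group held the cells with genes of other types named above. Without every fibroblast that held 5 or more UMIs of such genes, a comparison added after the data had been seen, 71 and 102 *Pi16*-positive cells were set against 247 and 407. Then 40 of 8551 genes (0.468%) were higher and 27 (0.316%) lower, and 29 and 21 of them were also in the counts over all cells. *Wnt10b* had log2 ratios of 2.28 and 2.68, *Car8* of 3.02 and 2.99, *Tek* of 1.47 and 1.78, *Slc43a3* of 1.92 and 1.56, and *Efemp1* of 1.35 and 1.06. *Ibsp*, *Chad* and *Htra4* are among the genes by which these cells were left out, so that their ratios without them are not independent of that choice and are not read here.

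The members that stayed lower in *Pi16*-positive cells without those cells, chosen here after their values were seen, included *Comp*, a cartilage and tendon matrix protein, at -1.24 and -1.60. *Aqp1*, a water channel, stood at -1.93 and -2.52, and *Mmp3*, stromelysin, at -2.22 and -1.42. *Cyp26b1*, which degrades retinoic acid, stood at -1.69 and -2.33. *Il33*, an alarmin of stromal cells, was higher at 1.11 and 2.41. *C7*, a terminal complement component, was higher at 2.31 and 1.03.

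Of 22 genes described for *Pi16* and *Dpp4* positive adventitial fibroblasts, 21 were measured and 6 were at least 2-fold higher in both libraries, beside 0.932% of all genes. These were *Cd55*, *Anxa3*, *Efhd1*, *Mfap5*, *Fbn1* and *Efemp1*, and 0 were lower. The list had a median log2 ratio of 0.88 (untreated) and 0.89 (calcitriol-injected), against 0.090 and 0.045 over all genes. *Cd55* stood at 1.47 and 1.00, *Anxa3*, a membrane-binding annexin, at 1.35 and 1.14, and *Mfap5* at 1.49 and 1.48. *Fbn1*, the microfibril protein fibrillin-1, stood at 1.20 in both. *Dpp4* itself had 1.24 and 0.71, and *Cd34*, which is not on the list, had 1.36 and 1.21. Without the cells with genes of other types, the list's medians were 0.71 and 0.51 and 2 members remained past 2-fold in both.

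Matrix genes were divided. Of 13 collagens of the interstitial matrix 0 were higher and 3 lower in both libraries, beside 0.932% and 1.3% of all genes, against which the other lists of this comparison are also to be read. These were *Col1a1* at -1.40 and -1.47, *Col1a2* at -1.06 and -1.15, and *Col12a1*, which coats type I fibrils, at -1.55 and -2.15. Without the cells with genes of other types 0 of them were past 2-fold, with medians of -0.096 and -0.205. Of 18 measured genes of the elastic fibre, *Fbn1*, *Mfap5* and *Efemp1* were higher, as above, and *Ltbp2*, a latent TGF-β binding protein, was lower at -1.58 and -1.09. Without the cells with genes of other types *Efemp1* remained past 2-fold in both, while *Fbn1* had 0.79 and 0.75, *Mfap5* 0.99 and 1.01, and *Ltbp2* -1.11 and -0.83. *Tgfbr2*, a receptor for TGF-β, stood at 1.11 and 1.08 and was the only one of 17 measured TGF-β and BMP genes past 2-fold in both. Of 9 measured complement genes, *C3*, the central complement component, stood at 1.06 and 1.36 and *Cd55* was the other. Without those cells 0 of the 8 members of this complement list that were still measured and 0 of the 17 TGF-β and BMP genes were past 2-fold in both, while *C7*, given above, is not on that list. Of the growth factor list *Fgf1* was higher at 1.96 and 1.29, and *Ptn* and *Mdk*, the related factors pleiotrophin and midkine, were lower. The calcitriol value of *Fgf1* rests on 9 UMIs with an interval that holds 0 (-0.016 to 2.46). Without the cells with genes of other types 0 growth factors were lower in both libraries. Of 17 genes of *Col15a1*-positive interstitial fibroblasts and of 24 immediate early genes, 0 were past 2-fold in both libraries in either direction. Without the cells with genes of other types 1 of the 17, *Apoe*, was lower in both, at -2.08 and -1.01, beside 0.316% of all genes.

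Calcitriol-injected and untreated *Pi16*-positive cells were compared over 5427 genes with at least 50 UMIs in both libraries together that were detected in 10% or more of the cells from either library. At 2-fold or more, 190 genes (3.5%) were higher and 263 (4.85%) lower in the calcitriol-injected cells. The median over all genes was -0.15, and centring the ratios on it gave 269 higher and 154 lower. With *Pi16*-positive cells counted from 2 UMIs, 165 were higher and 233 lower. These counts describe 2 libraries and have no test.

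The *Pi16*-negative fibroblasts, which come from the same 2 libraries, held 161 higher (1.88%) and 157 lower genes (1.83%) of 8557. Of the 190 genes higher in *Pi16*-positive cells, 184 were measured in *Pi16*-negative cells, where 61 were also past 2-fold in the same direction, with a median log2 ratio of 0.71. Of the 263 lower genes, 261 were measured there and 54 were also past 2-fold in the same direction, with a median of -0.67. Whether the differences between the kinds exceed chance was not tested.

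Among the genes with the highest ratios, the one found in most cells after calcitriol was *Galnt15* (chromosome 14, 32028989 to 32062197), which encodes an enzyme that starts O-linked glycans. Untreated cells held 59 UMIs in 31 of 75 cells, and after calcitriol 88 of 105 cells held 663 UMIs. It stood 6.83-fold higher, a log2 ratio of 2.77 (2.39 to 3.18), and had 2.77 in *Pi16*-negative cells too. *Serpina3n*, an acute-phase serine protease inhibitor, had 89 UMIs in 23 cells and 1267 UMIs in 83 cells, an 8.65-fold difference at 3.11 (2.80 to 3.44). In *Pi16*-negative cells it stood at 2.98. *Inmt*, an indolethylamine methyltransferase, had 13 UMIs in 6 cells and 299 UMIs in 28 cells, a ratio of 3.81 (3.01 to 4.73) beside 4.18 in *Pi16*-negative cells. These 3 genes were thus higher by similar amounts in both kinds of fibroblast.

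*Vegfd*, a growth factor of lymphatic vessels, had 2 UMIs in 1 untreated cell and 98 UMIs in 41 calcitriol-injected cells, a ratio of 4.90. Its ratio in *Pi16*-negative cells was 2.03. *Thsd7a*, a thrombospondin domain protein, had 1 UMI and 59 UMIs in 32 cells, at 5.16 (2.63 to 10.49) beside 0.85. *Angptl7*, a secreted angiopoietin-like protein also listed as a tendon marker, had 10 UMIs in 6 cells and 472 in 32 cells, at 4.84 (3.95 to 5.91) beside 2.11. *Mitf*, a transcription factor of pigment cells and osteoclasts, had 13 UMIs in 11 cells and 123 in 57 cells, at 2.52 beside 1.46. In each of these the *Pi16*-positive cells had the larger ratio, from low untreated counts. The genes were picked for high ratios in *Pi16*-positive cells, which favours a larger ratio there. *Vegfd*, *Thsd7a* and *Angptl7* also reached 10% of *Pi16*-positive cells only in the calcitriol library. No difference between the kinds of fibroblast is therefore read from these ratios.

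Several other high ratios rested on few cells or on 1 cell with many UMIs. *Saa1*, an acute-phase apolipoprotein, had 1 UMI in the untreated and 195 in 12 calcitriol-injected cells, of which 151 were in 1 cell. Its ratio was 6.89 (4.39 to 12.20) and was 3.16 without the highest cell of each library. *Saa3* of the same family, which was found in too few cells to be ranked and is named here after its values were seen, had 1 UMI and 656 UMIs in 5 cells. *Spp1*, osteopontin, had 20 UMIs in 10 cells and 558 in 58 cells, 473 of them in 1 cell, and its ratio of 4.08 became 2.34 without the highest cells. In endothelial barcodes *Spp1* stood at 176 and 1406 CPM, found in 17.3% and 46.6% of them. There, 421 of 518 and 2377 of 4179 UMIs were in 1 barcode. The part of free RNA in the *Spp1* ratio was not tested. *Chl1*, a neural adhesion molecule, had 166 UMIs in 16 calcitriol-injected cells at 4.66. *Lcn2*, the iron-carrier binding protein lipocalin 2, had 15 UMIs in 3 cells and 213 in 19 cells, at 3.11. *Ctsc*, a lysosomal protease, *Isg15* and *Iigp1*, both induced by interferon, stood at 2.87, 2.65 and 2.54. Over all 190 higher genes, 9 had at least 50% of their UMIs in 1 cell, and 181 stayed past 2-fold without the highest cell. Of the 263 lower genes these were 2 and 243.

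The genes lowest after calcitriol were led by *Crabp2*, a retinoic acid carrier, with 84 UMIs in 16 untreated and 13 UMIs in 7 calcitriol-injected cells, a ratio of -3.41 (-4.38 to -2.56). *Stmn4* stood at -3.28 and *Fgf1*, a fibroblast growth factor, at -2.91, from 41 UMIs in 22 cells to 9 in 6. *Clec11a*, a growth factor for bone-forming cells also called osteolectin, had 125 UMIs in 32 cells and 34 in 20 cells, at -2.60 (-3.19 to -2.04). Its ratio in *Pi16*-negative cells was -1.08. *Pthlh*, parathyroid hormone-related protein, stood at -2.12 (-2.80 to -1.48) beside -0.56 in *Pi16*-negative cells. *Ccnd1*, cyclin D1, stood at -2.22 beside -0.74.

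*Tppp3*, a tubulin-binding protein of tendon sheath and adventitial cells, was the most abundant of the lowest genes. Untreated cells held 1039 UMIs, in 70 of 75 cells, and 401 UMIs were found in 65 of 105 cells after calcitriol, 4.26-fold lower at -2.09 (-2.26 to -1.92), beside -1.87 in *Pi16*-negative cells. *Ckb*, brain-type creatine kinase, had 238 and 75 UMIs, at -2.38 beside -1.95. *Tmem100*, a membrane protein of BMP signalling, had 325 and 121 UMIs, at -2.14 beside -0.99. *Spon2*, *Slurp1*, *Daam2*, *Tpm2*, *Gm17455* and *Maged2* had ratios between -2.68 and -2.01. All 15 were also below 0 in *Pi16*-negative cells.

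**Figure D4:**
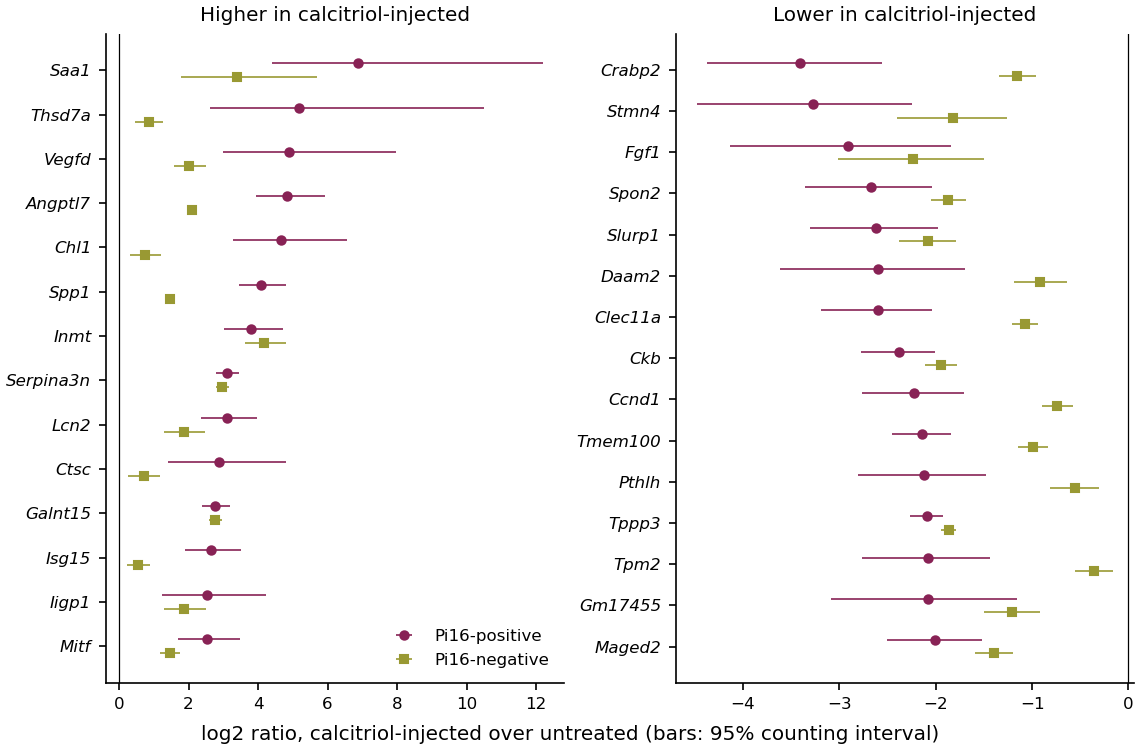
Log2 ratios of calcitriol-injected over untreated cells for the highest and lowest named genes of the Pi16-positive fibroblasts, beside the same ratio in Pi16-negative fibroblasts; bars are 95% counting intervals. Serpina3n, Galnt15, Inmt and Tppp3 lie close together in both, while Thsd7a, Chl1 and Isg15 lie further from 0 in Pi16-positive cells. The genes were chosen by their ratios in Pi16-positive cells, which favours larger ratios there.

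Genes known to respond to glucocorticoids mostly stood higher. This list was taken up in earlier work on these libraries after their leading genes had been seen and is no independent evidence. Of 15 members, 9 were at least 2-fold higher and 0 lower, beside 3.5% and 4.85% of all genes, with a median of 1.29. *Pi16*-negative cells also had 9 higher and 0 lower, beside 1.88% and 1.83% of all genes there, with a median of 1.18. *Mt1* and *Mt2*, the metal-binding metallothioneins, were the most abundant. *Mt1* had 2905 UMIs in 72 of 75 untreated and 14710 in 105 of 105 calcitriol-injected cells, at 1.62 (1.56 to 1.68), and *Mt2* had 1837 and 8169 UMIs, at 1.43 (1.36 to 1.51). In endothelial barcodes *Mt1* stood at 758 and 1506 CPM.

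*Sgk1*, a kinase that regulates sodium channels, had 224 UMIs in 48 cells and 1079 in 97 cells, at 1.55 (1.34 to 1.76). *Zbtb16*, a zinc finger repressor, stood at 1.43, *Pdk4*, which restrains pyruvate oxidation, at 2.13, and *Ddit4*, an inhibitor of mTORC1, at 1.78. *Angptl4* stood at 1.29, *Glul*, glutamine synthetase, at 1.08, and *Lcn2* is given above. *Tsc22d3* and *Cebpd* had 0.89 and 0.82, while *Fkbp5* and *Per1*, often used as glucocorticoid targets, had 0.13 (-0.27 to 0.53) and 0.64 (-0.23 to 1.57). Immediate early and heat shock genes, which respond to tissue digestion, had 1 of 24 higher (*Nr4a1* at 1.03), 0 lower and a median of 0.12, beside 3.5% and 4.85% of all genes.

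The promoters of 3 of these genes are shown because *Mt1* and *Mt2* are neighbours that stood higher together and *Sgk1* holds a rare motif. They are the 250 bases before RefSeq starts (GRCm38.p6), all on the plus strand: *Mt1* at chr8:94178839-94179088, *Mt2* at chr8:94172368-94172617 and *Sgk1* at chr10:21993640-21993889. Capitals mark the metal response core TGCNCNC in *Mt1* and *Mt2* and the consensus glucocorticoid response palindrome in *Sgk1*, searched on both strands.
Mt1: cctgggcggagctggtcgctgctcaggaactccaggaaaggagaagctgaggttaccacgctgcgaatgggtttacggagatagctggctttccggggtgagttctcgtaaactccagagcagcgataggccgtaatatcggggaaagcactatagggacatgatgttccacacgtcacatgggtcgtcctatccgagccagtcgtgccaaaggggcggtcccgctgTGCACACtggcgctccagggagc
Mt2: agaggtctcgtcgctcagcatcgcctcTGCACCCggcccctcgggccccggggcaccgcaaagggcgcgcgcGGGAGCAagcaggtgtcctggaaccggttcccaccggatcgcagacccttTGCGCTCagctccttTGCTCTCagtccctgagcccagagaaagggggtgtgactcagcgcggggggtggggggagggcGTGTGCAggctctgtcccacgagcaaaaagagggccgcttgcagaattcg
Sgk1: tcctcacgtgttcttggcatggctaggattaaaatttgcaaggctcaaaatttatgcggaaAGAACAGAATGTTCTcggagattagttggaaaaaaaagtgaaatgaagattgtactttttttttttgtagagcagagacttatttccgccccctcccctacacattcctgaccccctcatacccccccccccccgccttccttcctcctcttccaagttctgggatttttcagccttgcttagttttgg

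The metal response core was found 1 time in the *Mt1* and 5 times in the *Mt2* window, and 44.4% of the 32851 RefSeq mouse promoters hold it at least once. The palindrome was found in 1 of the 6 *Sgk1* promoters and in 3 of all 32851 (0.00913%). Of the 24 promoters described below, no other held the palindrome. Its TGTTCT arm, which lies within the palindrome, is in 16.1% of all promoters. The consensus vitamin D response repeat was in 2 of all promoters (0.00609%). It was in 0 of the 24 promoters found for 15 of 18 genes looked up, which were the 15 of the list with *Galnt15*, *Serpina3n* and *Inmt*. These matches describe letters only. Which starts of *Mt1*, *Mt2* and *Sgk1* the cells used was not analysed here, and bases outside the windows were not searched.

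Of 8 measured complement genes 2 stood 2-fold or more higher and 1 lower, beside 3.5% and 4.85% of all genes. Among the higher was *C4b*, a component of the classical pathway, at 1.17 (0.95 to 1.39). *Cd55* was lower at -1.12. *C3* had 603 UMIs in 34 cells and 1920 in 62 cells, at 0.95 (0.82 to 1.09), and *Cfb*, factor B, stood at 0.87. The list's median was 0.79, beside 0.33 in *Pi16*-negative cells. Of 11 measured chemokines and cytokines 3 were higher and 0 lower, beside 3.5% and 4.85% of all genes. *Cxcl14* had 225 UMIs in 17 cells and 1628 in 40 cells, 687 of them in 1 cell, at 2.14. *Il6* had 91 UMIs in 18 cells and 576 in 51 cells, at 1.94 (1.62 to 2.28) beside 0.84 in *Pi16*-negative cells. *Ccl19*, which draws T cells and dendritic cells, stood at 1.21. *Ccl2*, *Cxcl1* and *Cxcl2* had -0.28, 0.23 and 0.34. Of 9 interferon-response genes *Isg15* and *Irf7* were higher, at 2.65 and 2.06, and 0 lower, beside 3.5% and 4.85% of all genes. The median over this list was 0.21.

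Matrix genes differed between lists. Of 13 collagens 0 were past 2-fold in either direction, beside 3.5% and 4.85% of all genes, and all 13 had negative ratios with a median of -0.49, beside -0.15 over all genes. *Col1a1* stood at -0.64, *Col3a1* at -0.27 and *Col16a1* at -0.99. *Lox*, which cross-links collagen and elastin, was higher with 78 UMIs in 24 cells and 548 in 73 cells, at 2.09 (1.75 to 2.46) beside 1.85 in *Pi16*-negative cells. *Eln*, elastin, was lower at -1.04 (-1.71 to -0.38). *Col4a1* and *Col4a2*, the collagens of the basement membrane, had 0.84 and 0.76, and *Col15a1* had -1.08. The basement membrane list had a median of 0.16 and the elastic fibre list of -0.11. *Dcn*, the proteoglycan decorin and one of the most abundant transcripts, stood at 11380 and 17003 CPM.

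Of 19 proteases and inhibitors 4 were higher and 0 lower, beside 3.5% and 4.85% of all genes. *Timp1*, an inhibitor of metalloproteinases, had 218 UMIs in 40 cells and 1294 in 61 cells, at 1.85 (1.64 to 2.06) beside 0.63 in *Pi16*-negative cells. *Adamts4*, an aggrecanase, stood at 1.76 and *Mmp3* at 2.17 with UMIs in 7 and 14 cells, 89 of 170 in 1 of the latter.

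Growth factors went both ways, with 4 of 19 higher and 4 lower beside 3.5% and 4.85% of all genes. Besides *Vegfd*, *Igfbp4* and *Igfbp3*, which bind insulin-like growth factors, were higher at 1.28 and 1.10. Besides *Fgf1*, *Fgf2* stood at -1.13, *Ptn* at -1.59 and *Igfbp5* at -1.12. *Igfbp4* was found in 48 and 89 cells and had 0.22 in *Pi16*-negative cells. *Igf1* had -0.33 in *Pi16*-positive and -1.75 in *Pi16*-negative cells. Of 17 TGF-β and BMP genes only *Fst*, the activin antagonist follistatin, was past 2-fold, higher at 1.41. Of 7 Wnt ligands and modulators only *Wnt2* was, lower at -1.54. Beside 3.5% and 4.85% of all genes, 1 member past 2-fold in lists of this size says little.

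Of the genes of *Pi16* and *Dpp4* positive adventitial fibroblasts, a minority stood 2-fold or more lower after calcitriol. Of 20 measured members 0 were higher and 7 lower by 2-fold or more, beside 3.5% and 4.85% of all genes, with a median of -0.66. In *Pi16*-negative cells 0 of 21 were higher and 5 lower, beside 1.88% and 1.83% of all genes there, with a median of -0.58. *Cd248*, the surface protein endosialin, had 523 UMIs in 70 untreated and 233 in 61 calcitriol-injected cells, at -1.88 (-2.11 to -1.66). *Sema3c*, a guidance protein, stood at -1.31 (-1.56 to -1.07), *Efhd1* at -1.30, *Anxa3* at -1.08 and *Cd55* at -1.12. *Tppp3* and *Wnt2* are given above.

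*Dpp4* had 140 UMIs in 43 of 75 and 126 UMIs in 40 of 105 cells, at -0.87 (-1.23 to -0.51). *Clec3b* and *Cd34*, the markers not used by the rule, stood at -0.83 (-0.92 to -0.74) and -1.10 (-1.24 to -0.96). *Pi16* itself had 569 and 1003 UMIs, at 633 and 678 CPM. *Efemp1* was the highest of the list at 0.70 (0.41 to 1.00). The share of cells with a single *Pi16* UMI differed between the libraries, as given above, and its part in these ratios was not tested. Among 17 measured genes of *Col15a1*-positive interstitial fibroblasts, *Cxcl14*, *Apoe*, *Fabp4* and *Ggt5* were higher and *Col15a1* lower, beside 3.5% and 4.85% of all genes, with a median of 0.29. *Apoe* stood at 1.49 and at 0.47 without the highest cells.

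**Figure D5:**
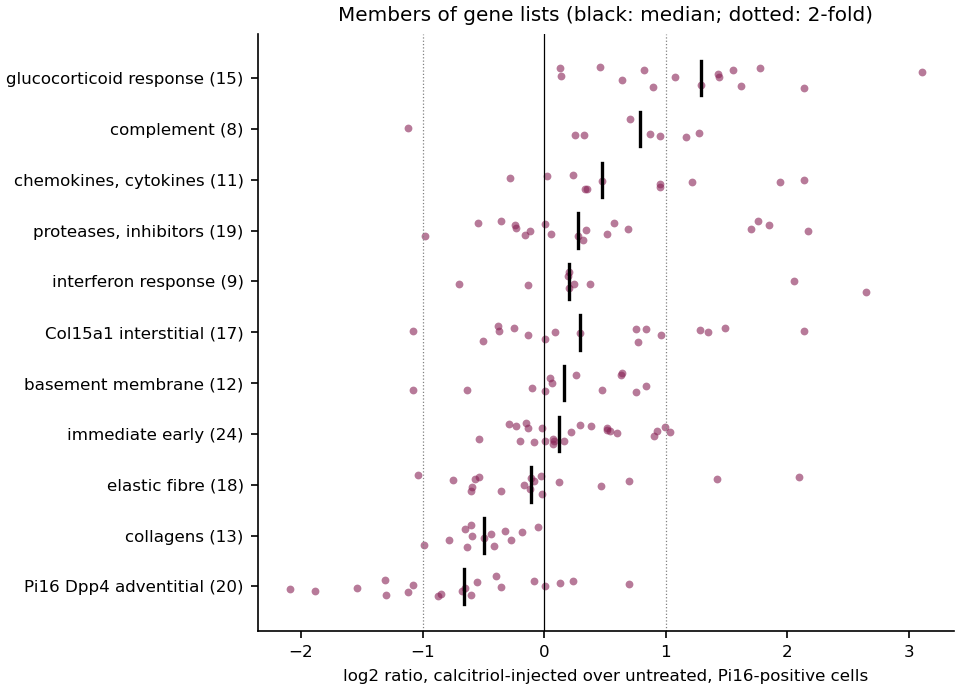
Log2 ratios of calcitriol-injected over untreated Pi16-positive cells (horizontal) for the measured members of 11 gene lists, 1 point per gene with their number in brackets; black bars are medians and dotted lines mark 2-fold. The glucocorticoid-response list has its median at 1.29 and the adventitial list at -0.66.

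Classical vitamin D genes were scarce in these cells. *Vdr*, the vitamin D receptor, had 0 UMIs in the untreated and 8 UMIs in 4 calcitriol-injected cells. *Cyp24a1*, which degrades calcitriol, had 0 UMIs in both, which allows 3 counts in each group of cells. *Fgf23* had 0 and 2 UMIs. Of 15 genes of the receptor, its partners and targets, 3 were abundant enough to be compared, and *Spp1* was the only one past 2-fold. *Enpp1* stood at 0.047 and *Pdia3* at -0.68. Of 15 vitamin D genes that the study had named from these libraries, 8 were compared and *Timp1* was the only one past 2-fold, with a median of -0.25. Over all genes 3.5% were higher and 4.85% lower, so that 1 member past 2-fold in each of these short lists says little. That list is not independent of the data.

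Transcripts of other cell types also differed between the groups. *Prg4*, lubricin, whose share the rule limited, had 1371 UMIs in 60 untreated and 7340 in 99 calcitriol-injected *Pi16*-positive cells, at 1.70. In endothelial barcodes it stood at 531 and 1625 CPM. *Hbb-bs*, a haemoglobin chain, stood at -2.13 in *Pi16*-positive cells and at 17085 and 1842 CPM in endothelial barcodes. The smooth muscle gene *Acta2* had 32 UMIs in 2 cells and 1 UMI, and *Tnmd*, a tendon gene, 33 UMIs in 7 cells and 5 UMIs in 2. The part of these transcripts in the other ratios was not tested.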

How the data were processed

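The authors deposited, for each library, the matrix of UMI counts of 10x Genomics 3' libraries filtered by Cell Ranger 4.0.0, and mm10 is the build in the submitters' notes, which also name Seurat 3.2.2. Counts were used as deposited. Gene coordinates came from a GENCODE annotation of GRCm38 by gene identifier, which may not be the authors' release. The members and the gene lists were chosen with earlier results of these data known.

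Expression in CPM was computed from UMIs summed over the cells of a group. Intervals were exact at the 95% level for the error of counting only (Poisson, conditional binomial or Clopper-Pearson). Where a group held 0 UMIs, 3 counts over the group served as the floor. With 1 library per group there are no p-values.

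Named genes were the 15 highest and 15 lowest of each comparison, without mitochondrial, haemoglobin and rule genes, members of the lists and the markers; exceptions are stated, and some genes that meet the rule are not reported here. Rankings between libraries required an interval that left out 0. Endothelial barcodes had 200 or more genes, a UMI of *Cdh5* and of *Pecam1* and 0 of *Pdgfra*; erythroid barcodes had haemoglobin at 50% or more of UMIs. Doublet scores used 2 simulated pairs for each cell. The ratios between the libraries were run on simulated Poisson counts without variation between cells or animals. There 95.5% of the intervals held the true ratio, which the way the counts were drawn favours. Variation between cells cannot be judged from it. Ratios of *Pi16*-positive over *Pi16*-negative cells were not simulated. Alternatives varied thinning, the UMI limits, the scaling and the cells kept. Python 3.11.15, numpy 2.4.6, scipy 1.17.1, pandas 2.3.3 and scikit-learn 1.9.0 were used.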

Additional observations from a re-analysis of the deposited data

How the results depend on the processing

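No paired analysis was possible because each group is 1 library. Each choice was varied alone, except that the lowest UMI limits also dropped the limit on cells. Of 60 shares and counts 38 moved by less than their limit, and so did 785 of 889 ratios of named genes and 714 of 729 list medians. With *Pi16* from 2 UMIs the shares of positive cells were 13.6% and 10.3%, and thinned to 5000 UMIs the calcitriol share was 13.7%. Without cells with genes of another type, added after seeing the data, they were 22.3% and 20.0%. Between the libraries, thinning to 2000 UMIs left 64 higher and 72 lower of 1064 genes tested, centring gave 154 lower, at least 20 UMIs and no limit on cells gave 392 and 604, and at least 200 UMIs gave 72 and 66. Between *Pi16*-positive and *Pi16*-negative cells, thinning gave 27 and 35, at least 1 UMI of *Ly6a* 198 lower, at least 50 UMIs 49 higher, and at least 10 UMIs with no limit on cells 144 and 303. Leaving out the highest cell of each gene gave 55 and 179, and leaving out cells with genes of another type gave 40 and 27. The sign turned on thinning for *Tubb4a* and *Car8* (both -0.36) and *Ano1* (0.41) in the untreated library. Without cells with genes of another type it turned for *Ibsp* (0.45 and 0.62), *Chad* (0.11) and *Htra4* (0.083), and for the chondrocyte list's median (0.11), but these genes also served to find those cells, so that the turn is not independent of that choice. In the untreated library the medians of the *Col15a1* interstitial (-0.19) and elastic fibre lists (-0.054) also crossed 0. The same held there for the glucocorticoid (-0.285), Wnt (-0.415), immediate early (-0.144) and interferon lists (-0.03). In the calcitriol library, over the fewer genes still tested, the medians of the tendon (0.28, 3 genes), synovial lining (0.29, 1 gene) and smooth muscle lists (0.11, 1 gene) crossed 0. Those of the growth factor (-0.042), adipocyte (-0.174), protease (0.001) and CAP family lists (0.0098) crossed 0 there too. With *Pi16* from 2 UMIs it turned for the median of the *Col15a1* interstitial list in the calcitriol library (-0.17). Thinning and stricter limits test fewer genes; for the other changes the cause was not tested. Sparse genes and 1 library per group limit every ratio.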
